A study of Mus musculus with 6 samples.

Results

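The 9 genes described here carry folate into the cell, hold it there, load it with single carbon units and use them, with salvaged thymidine, to make thymidylate for DNA. They are Slc19a1, Fpgs, Ggh, Shmt1, Shmt2, Mthfd1, Mthfd2, Tyms and Tk1, and they were chosen by name, as every probe whose gene name in the scanner files was one of the 9. They are 9 of the 22320 genes that could be named on the array. RNA came from cultured MEFs, fibroblasts taken from mouse embryos, all of strain ICR and all kept in the same serum-containing medium. The 6 groups were Per2m/m cells given a vector that expresses H-Ras and SV40T, Per2m/m cells given a mock, Clk/Clk cells given that vector, Clk/Clk cells given a mock, wild type cells given that vector and wild type cells given a mock. Clk/Clk is the Clock mutant by the series design, and both Clock and Per2 are parts of the circadian clock. H-Ras is a small GTPase and an oncogene when activated, and the viral T antigen, SV40T, takes the tumour suppressors p53 and RB out of action. Each group was 1 culture on 1 array, and the sources used here do not say how many embryos gave the cells, whether a culture was a clone, or how long after transfection the RNA was taken.

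Folate reaches the cytosol through a carrier, is trapped there by a tail of glutamates, and then shuttles carbon units that come mostly from serine. Cytosolic and mitochondrial enzymes run the same chemistry in parallel, and the units end in purines, in methionine and in thymidylate, where thymidylate synthase methylates dUMP. Thymidylate can also be salvaged by thymidine kinase, and dividing cells need much more of it than resting cells do. Several drugs used against tumours, methotrexate and fluorouracil among them, act on this route.

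The arrays had 59305 spots that were not controls, of which 49.3% were well above background on the transfected Per2m/m array and 53.5% to 57.3% on the others, and none was saturated. Across genes, the transfected Per2m/m array had a median r of 0.853 with the other arrays, whose own medians were 0.931 to 0.945. Its median signal was 18.5, against 26.1 to 28.95 on those 5. In the labels, the source name of its sample leaves out SV40, while the field on transfection gives the same vector as for the other transfected cells. Of 4 sex-linked genes (Xist, Ddx3y, Eif2s3y and Uty), 0 were well above background on that array and 3 on the mock array of its genotype. All 4 were so on both wild type arrays, and 3, without Xist, on both Clk/Clk arrays. The Xist level was -6.633 on the transfected and -6.792 on the mock array in Clk/Clk cells, against -0.954 and -1.025 in wild type cells. Fibroblast markers were well above background in 11 of 12 cases on the transfected Per2m/m and the transfected wild type array, and 12 of 12 on the others. On the transfected and mock Per2m/m arrays their median level was 1.97 and 4.57 and their summed level 10.68 and 10.70. Smooth muscle and myofibroblast markers had a summed level of 3.67 on the transfected Per2m/m array and 10.8 on its mock array, while on the other 4 arrays it was 10.2 to 10.7. Macrophage markers had a summed level of 4.19 on the transfected and 5.80 on the mock array in Per2m/m cells, 5.84 and 5.95 for Clk/Clk, and 4.58 and 5.56 for wild type. Of these, 8 of 12 were well above background on each transfected array and on the Clk/Clk mock array. On the mock arrays of wild type and Per2m/m cells 11 and 12 were. Epithelial markers were well above background in 6 or 7 of 10 cases on every array, but Cdh1 and Krt8 were so on the transfected Per2m/m array alone, where Krt18 and Krt19 were not. Their summed level was 2.76 on that array, 2.29 on the Per2m/m mock array and -0.25 to 1.18 on the other 4. Endothelial markers were well above background in 2 or 3 of 6 cases on every array. The part of these differences between cultures in the results below was not tested, and model terms are also given without the transfected Per2m/m array.

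A level below is log2 of the spot's processed signal over the array's 75th percentile, so that 0 is the signal of a spot at that percentile, and a response is the level on the transfected array minus that on the mock array of the same genotype. With 1 array a group a response has no test, and it is read against 2-fold, which is a response of 1. Repeated spots gave a response a spread of 0.085, which covers spot noise and nothing between cultures. All 13 probes of the 9 genes were looked at. Of these, 12 were well above background on all 6 arrays and 1, another Tk1 probe, on none, so that no gene was lost by the filter on dim probes. Each gene is given by its brightest probe, and levels are compared between arrays and never between genes.

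In wild type cells, 6 of the 9 genes were at least 2-fold higher with the vector and 0 were at least 2-fold lower, where 7.54% of the 16718 genes measured were as much higher and 11.8% as much lower. Among Per2m/m arrays 5 of the 9 passed 2-fold upward and 0 downward, where 18.7% of all genes were higher and 20.7% lower. In Clk/Clk cells 1 was higher and 0 lower, where 3.75% of all genes were higher and 4.13% lower. The median response of the 9 genes was 1.04 in Per2m/m, 0.52 in Clk/Clk and 1.08 in wild type cells, against 0.12, 0.02 and 0.00 over all genes. Centring each array on its median moved the median of all genes to 0.52 in Per2m/m, 0.04 in Clk/Clk and 0.24 in wild type cells, and that of the 9 genes to 1.44, 0.55 and 1.33. Several genes lay close to 2-fold, and under quantile normalization, normexp background correction and in the authors' deposited table the Per2m/m count was 2, with Mthfd1, Ggh and Slc19a1 between 0.84 and 0.91. The wild type count was 5 under quantile normalization and in the deposited table and 4 under normexp. Slc19a1 passed 2-fold upward in all 3 genotypes, and Shmt1 and Mthfd1 in wild type and Per2m/m cells. Tyms, Tk1 and Shmt2 passed in wild type cells alone, and Mthfd2 and Ggh in Per2m/m cells alone. The overlap between genotypes was not counted over all genes. Of the 9, 6 genes (Tyms, Shmt1, Mthfd1, Mthfd2, Fpgs and Slc19a1) had a response above 0 in all 3 genotypes, as 18.0% of all genes did (27.4% with arrays centred on their median). Tk1, Shmt2 and Ggh did not.

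**Figure D1:**
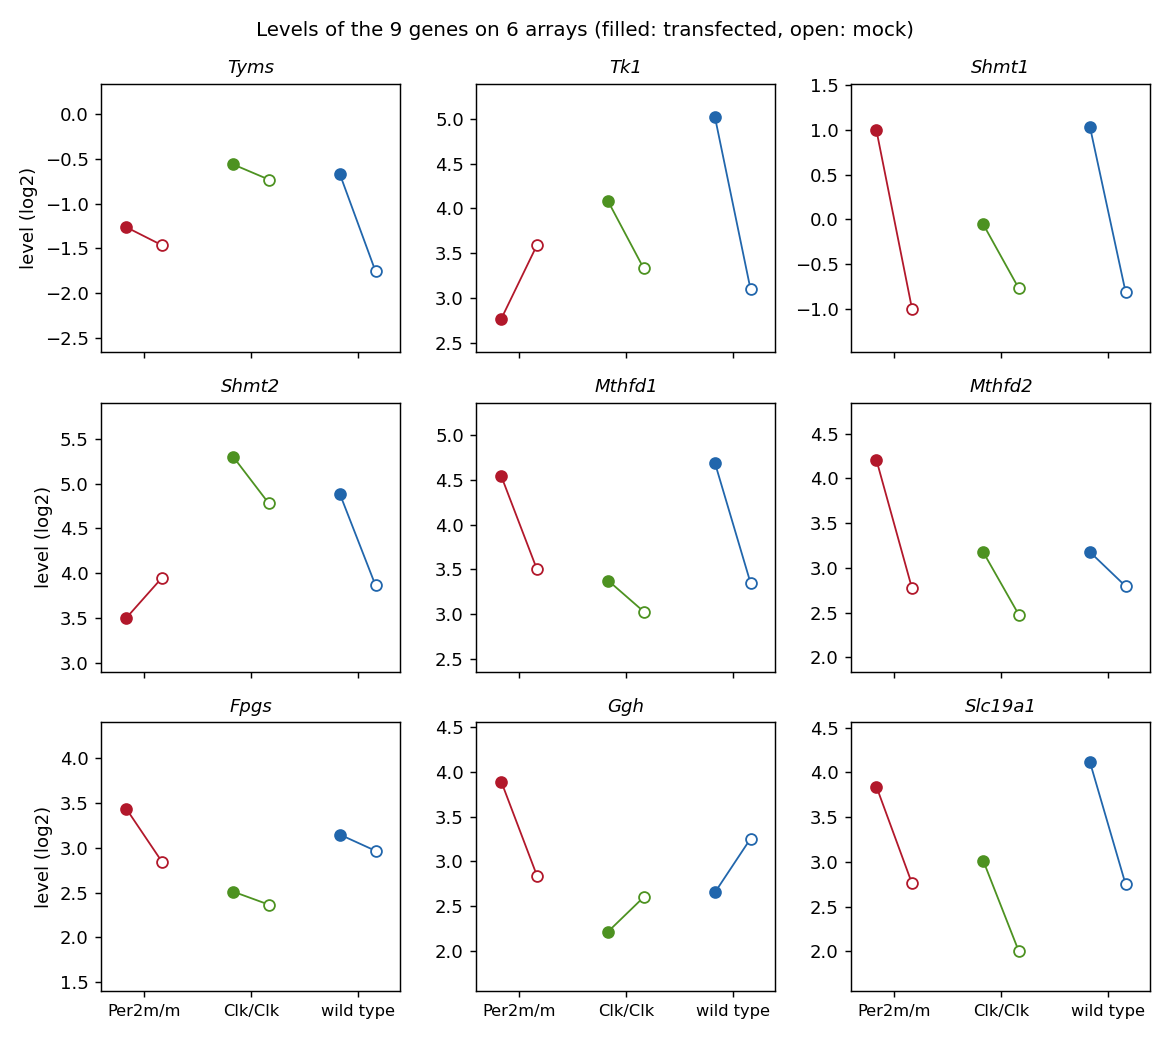
Level (log2 over the array's 75th percentile) of each gene's brightest probe on the 6 arrays, a panel per gene, with the transfected array (filled) left of the mock array (open) and a line joining arrays of a genotype. Each point is 1 array. Lines for Tk1 and Shmt2 run the other way in Per2m/m cells than in Clk/Clk and wild type cells, and so does the line for Ggh.

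The folate carrier Slc19a1, which takes reduced folates and methotrexate into cells, was higher with the vector in each genotype. Its level was 3.84 on the transfected and 2.76 on the mock array in Per2m/m cells, 3.01 and 2.00 on the Clk/Clk pair of arrays, and 4.11 and 2.75 on the wild type pair. The responses were thus 1.08, 1.01 and 1.36, and by this probe all 3 transfected arrays lay above all 3 mock arrays. A second probe nearer the start of the transcript gave 0.94 in Per2m/m, 0.20 in Clk/Clk and 0.96 in wild type cells, so the Clk/Clk response of 2-fold rested on a single probe. By that second probe the transfected Clk/Clk array (-2.29) lay below the mock Per2m/m (-2.15) and mock wild type (-1.95) arrays. The brighter probe lies at chr10:76512874-76512933 and the other at chr10:76501259-76501318 (mm9, plus strand).

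Fpgs, the synthetase that adds the glutamate tail and so keeps folates and antifolates inside the cell, differed little. Its levels were 3.44 and 2.84 on the transfected and mock arrays in Per2m/m cells, 2.51 and 2.36 on the Clk/Clk pair of arrays, and 3.15 and 2.97 on the wild type pair. The responses were 0.59, 0.15 and 0.18, all under 2-fold, and both Clk/Clk arrays lay below the other 4. Under normexp correction Fpgs was not above 0 in all 3 genotypes.

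Ggh, the hydrolase that removes the tail again, had opposite responses in Per2m/m cells and in the other genotypes. Its level was 3.89 on the transfected and 2.84 on the mock array in Per2m/m cells, against 2.22 and 2.60 on the Clk/Clk pair and 2.66 and 3.26 on the wild type pair. The response was 1.05 in Per2m/m cells, -0.39 in Clk/Clk cells and -0.60 in wild type cells. The transfected Per2m/m array held the highest level of the 6, and the other 2 transfected arrays were below the mock array of their own genotype.

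Serine hydroxymethyltransferase takes the carbon unit from serine and hands it to folate, in the cytosol as Shmt1 and in mitochondria as Shmt2. Shmt1 had the highest response of the 9 genes in Per2m/m cells. Its level was 0.996 on the transfected and -0.999 on the mock array in Per2m/m cells, -0.06 and -0.77 on the Clk/Clk pair of arrays, and 1.03 and -0.81 on the wild type pair. These are responses of 2.00 (3.99-fold), 0.72 and 1.84 (3.59-fold), and the transfected arrays all lay above the mock arrays. A second Shmt1 probe gave 1.31 in Per2m/m, 0.36 in Clk/Clk and 1.22 in wild type cells, the same order at a smaller size.

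Shmt2 ran differently. Its level was 3.50 on the transfected and 3.95 on the mock array in Per2m/m cells, 5.30 and 4.78 on the Clk/Clk pair of arrays, and 4.88 and 3.86 on the wild type pair. The response was -0.45 in Per2m/m cells, 0.52 in Clk/Clk cells and 1.02 in wild type cells. The lowest level of the 6 was that of the transfected Per2m/m array, and both Clk/Clk arrays were above their wild type counterparts. With arrays centred on their median the Per2m/m response was -0.05, within the spot noise, where the median of all genes was 0.52. It was -0.60 under quantile normalization and in the authors' deposited table, and -0.53 under normexp correction.

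The sequences before the start of the genes for both serine hydroxymethyltransferases are shown because these are a cytosolic and a mitochondrial copy of 1 enzyme with different responses in Per2m/m cells. Each is the 250 bases before the gene's start, 5′ to 3′ on the gene's minus strand, from RefSeq on GRCm38.p6. Capitals mark matches, on either strand, to the 6 motifs searched.
Shmt1, chr11:60811266-60811515: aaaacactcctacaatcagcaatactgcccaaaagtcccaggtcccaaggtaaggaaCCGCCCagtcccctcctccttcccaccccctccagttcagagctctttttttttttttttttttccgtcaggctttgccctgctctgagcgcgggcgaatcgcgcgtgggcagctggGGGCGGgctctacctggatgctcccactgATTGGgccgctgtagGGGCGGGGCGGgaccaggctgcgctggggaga
Shmt2, chr10:127522445-127522694: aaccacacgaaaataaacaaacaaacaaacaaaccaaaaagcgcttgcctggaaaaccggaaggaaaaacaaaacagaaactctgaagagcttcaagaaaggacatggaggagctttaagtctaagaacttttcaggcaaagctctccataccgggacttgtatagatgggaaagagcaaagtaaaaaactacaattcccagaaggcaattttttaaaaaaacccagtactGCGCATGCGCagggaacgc
In Shmt1 the capitals are 4 GC boxes (GGGCGG, the word bound by Sp1), of which 2 overlap, and a CCAAT box. In Shmt2 they are 2 overlapping matches to GCATGCGC, the core word of an NRF1 site, 10 to 19 bases before the start, and this word was added to the search after the Shmt2 sequence had been seen. The Shmt2 stretch is 40.8% G or C, below the median of 52.4% over all promoters of this length, and that of Shmt1 is above it. Of 32851 such promoters, 32.7% hold the GC box word, 33.8% the CCAAT word and 2.26% the NRF1 word.

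Mthfd1 is the cytosolic enzyme with 3 activities that turns formate and folate into the forms used for purines and thymidylate. Its level was 4.54 on the transfected and 3.50 on the mock array in Per2m/m cells, 3.38 and 3.03 on the Clk/Clk pair of arrays, and 4.69 and 3.35 on the wild type pair. The responses were 1.04, 0.35 and 1.34 (2.53-fold in wild type). The transfected Per2m/m and wild type arrays stood above the other 4, which lay within 3.03 to 3.50.

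Mthfd2, a mitochondrial dehydrogenase and cyclohydrolase that is high in embryos and in many tumours and is a known target of the transcription factor ATF4, had its highest response in Per2m/m cells. Its level was 4.21 on the transfected and 2.77 on the mock array in Per2m/m cells, 3.18 and 2.48 on the Clk/Clk pair of arrays, and 3.18 and 2.80 on the wild type pair. The responses were 1.44 (2.70-fold), 0.70 and 0.38. The 3 mock arrays were lower than the 3 transfected arrays, and the transfected Clk/Clk and wild type arrays had the same level.

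**Figure D2:**
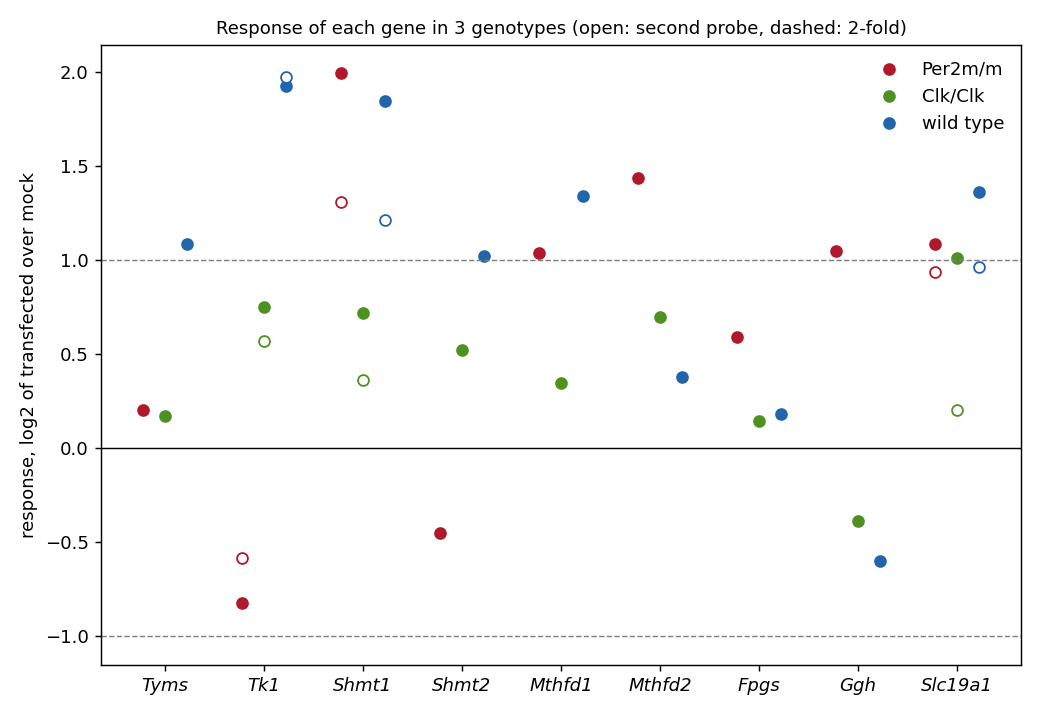
Response (log2 of the transfected over the mock array) of the 9 genes in Per2m/m, Clk/Clk and wild type cells, with the second probe of Tk1, Shmt1 and Slc19a1 as open points and dashed lines at 2-fold. Each point is a ratio of 2 single arrays. Tk1 spans -0.82 in Per2m/m to 1.92 in wild type cells, and Fpgs stays under 2-fold in all 3.

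Thymidylate synthase, Tyms, makes thymidylate with methylene folate as the donor. Its probe passed 2-fold in wild type cells and not in the other genotypes (0.89 in wild type under normexp correction). In wild type cells its level was -0.67 on the transfected and -1.76 on the mock array, which is a response of 1.08. In Per2m/m cells it was -1.26 on the transfected and -1.46 on the mock array, and in Clk/Clk cells -0.56 and -0.73, which are responses of 0.20 and 0.17. The mock Clk/Clk array was nearly as high as the transfected wild type array, so the genotypes differed in their mock level as well as in their response. This single probe (chr5:30385578-30385637, mm9, minus strand) starts at base 2900 of its transcript, and most mouse Tyms mRNA is known to end close to the stop codon, so its values are of transcripts that reach that far.

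Thymidine kinase 1, Tk1, the cytosolic salvage enzyme whose mRNA is highest in S phase, had the lowest response of the 9 genes in Per2m/m cells. In wild type cells it was, with Shmt1, 1 of the 2 highest, and their order turned with the scaling. Its level was 2.77 on the transfected and 3.59 on the mock array in Per2m/m cells, 4.08 and 3.33 on the Clk/Clk pair of arrays, and 5.02 and 3.09 on the wild type pair. The responses were -0.82 (0.566-fold), 0.75 and 1.92 (3.80-fold). The mock arrays lay within 3.09 to 3.59, while the transfected arrays were both the highest and the lowest of the 6. A second Tk1 probe gave -0.59 in Per2m/m, 0.57 in Clk/Clk and 1.97 in wild type cells, the same signs and order. The brighter probe lies at chr11:117676845-117676904 and the second at chr11:117683390-117683449 (mm9, minus strand).

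The sequences before the start of Tk1, Tyms and Mthfd2 are shown since the salvage enzyme, the synthase and the mitochondrial enzyme had responses below, near and above 0 in Per2m/m cells. They are given as above, 250 bases from RefSeq on GRCm38.p6, each on the minus strand, with motif matches in capitals.
Tk1, chr11:117826015-117826264: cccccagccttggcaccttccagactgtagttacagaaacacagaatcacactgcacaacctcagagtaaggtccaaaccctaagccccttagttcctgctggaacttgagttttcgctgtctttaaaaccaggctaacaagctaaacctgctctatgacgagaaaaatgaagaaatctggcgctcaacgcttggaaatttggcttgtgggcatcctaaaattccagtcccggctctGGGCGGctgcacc
Tyms, chr5:30073626-30073875: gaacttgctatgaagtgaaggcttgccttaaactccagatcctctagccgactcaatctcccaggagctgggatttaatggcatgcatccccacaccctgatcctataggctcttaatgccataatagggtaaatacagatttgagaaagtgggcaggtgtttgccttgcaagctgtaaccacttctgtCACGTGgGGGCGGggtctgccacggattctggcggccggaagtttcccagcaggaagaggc
Mthfd2, chr6:83317605-83317854: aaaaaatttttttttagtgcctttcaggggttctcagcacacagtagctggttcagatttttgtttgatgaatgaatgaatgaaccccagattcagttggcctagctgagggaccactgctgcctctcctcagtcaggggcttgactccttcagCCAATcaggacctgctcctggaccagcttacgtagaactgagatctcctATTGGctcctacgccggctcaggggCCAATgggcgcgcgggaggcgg
Tk1 holds a GC box 8 to 13 bases before its start. Tyms holds a GC box and beside it CACGTG, 56 to 61 bases before the start, the E-box word to which CLOCK and its partner bind, which 6.02% of all promoters hold and which is in none of the other member promoters searched. Mthfd2 holds 3 CCAAT boxes. The words TTTCCCGC, TTTGGCGC, TTTCGCGC and TTTGCCGC, taken for an E2F site, occur in 1.86% of all promoters and TGATGNAA, the element bound by C/EBP and ATF factors, in 3.45%, and neither was found in the 8 member genes with a promoter entry, all but Ggh. The CCAAT box was in 4 of these 8 genes and the GC box in 6. A match of letters is not a bound site, and a word that was not found may lie outside these windows.

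A linear model over all 6 arrays, with genotype and transfection as additive terms, called 0 of 16718 genes at an adjusted p under 0.05 for transfection (0.0%), and likewise 0 (0.0%) for each genotype term (limma, Benjamini-Hochberg). At an unadjusted p under 0.05 it found 784 genes (4.69%) for transfection, among them 3 of the 9 genes. With 2 residual degrees of freedom the model leaves a wide error on each gene. That error rests on how unlike the responses of the genotypes were, and not on repeat cultures. The transfection term was 1.15 ± 0.25 (SE, limma) for Slc19a1, 1.52 ± 0.38 for Shmt1, 0.91 ± 0.32 for Mthfd1 and 0.84 ± 0.33 for Mthfd2, with an adjusted p of 0.691 in each case. For Tk1, whose responses had unlike signs, it was 0.62 ± 0.62 (limma, adjusted p 0.726). It was 0.02 ± 0.45 for Ggh, with an adjusted p of 0.987 by limma. Tyms, Shmt2 and Fpgs had terms of 0.49 ± 0.32, 0.36 ± 0.39 and 0.31 ± 0.26. Without the transfected Per2m/m array the term was 1.34 for Tk1, 0.77 for Shmt2, 0.54 for Mthfd2 and -0.49 for Ggh, while Slc19a1 and Shmt1 stood at 1.19 and 1.28, and no adjusted p was under 0.934.

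Per2m/m and wild type cells were further apart on transfected than on mock arrays over all genes, as the shares below show, and the counts of the 9 genes lay near those shares. Among mock arrays, none of the 9 reached a 2-fold difference between Per2m/m and wild type cells in either direction, where 4.39% of all genes were higher and 4.34% lower. The differences ran from -0.41 for Ggh to 0.50 for Tk1, with a median of 0.01. Among transfected arrays 2 were at least 2-fold higher in Per2m/m (Ggh by 1.23 and Mthfd2 by 1.03) and 2 at least 2-fold lower (Tk1, -2.25, and Shmt2, -1.38), where 14.7% of all genes were higher and 16.3% lower. Mthfd2 was close to 2-fold, and under quantile normalization, normexp correction and in the authors' deposited table the first count was 1. The Per2m/m minus wild type term of limma had its largest sizes for Tk1 (-0.88 ± 0.76), Shmt2 (-0.65 ± 0.48) and Mthfd2 (0.50 ± 0.40), with adjusted p-values of 0.934 to 1.0 over the 9 genes, and 0 of the 9 had an unadjusted p under 0.05 against 372 of all genes (2.23%). Without the transfected Per2m/m array these terms were 0.20 for Tk1, -0.04 for Shmt2 and 0.06 for Mthfd2.

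On mock arrays the count of the 9 genes higher in Clk/Clk than in wild type cells lay near the share over all genes. On transfected arrays Mthfd1, Slc19a1 and Shmt1 were lower in Clk/Clk cells, by a count that moved with the processing. Among mock arrays 1 gene, Tyms (1.03), was at least 2-fold higher in Clk/Clk and 0 were lower, where 10.1% of all genes were higher and 10.7% lower. Tyms was 0.72 to 0.96 under the scalings and background correction tried and in the authors' deposited table. Shmt2 was 0.92 above wild type on mock arrays, and 1.07 to 1.09 under quantile normalization, normexp correction and in the deposited table. In those settings Shmt2, and not Tyms, was the 1 gene past 2-fold upward. Slc19a1, Ggh and Fpgs were -0.75, -0.65 and -0.60 relative to wild type on mock arrays. Among transfected arrays 0 were at least 2-fold higher in Clk/Clk and 3 were at least 2-fold lower, namely Mthfd1 (-1.31), Slc19a1 (-1.10) and Shmt1 (-1.09), where 13.3% of all genes were higher and 11.2% lower. The count of genes lower was 1 under quantile normalization and in the authors' deposited table and 0 under normexp correction. It was 4 with arrays centred on their median and with the mean of a gene's probes. Tk1, at -0.94 by its brightest probe, was -1.24 and -1.15 in those last settings. The Clk/Clk minus wild type term was -0.92 ± 0.31 for Slc19a1 (limma, adjusted p 0.542) and -0.82 ± 0.39 for Mthfd1 (limma, adjusted p 0.604). Of the 9 genes, 1 had an unadjusted p under 0.05 for this term, against 1504 of all genes (9.0%).

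**Figure D3:**
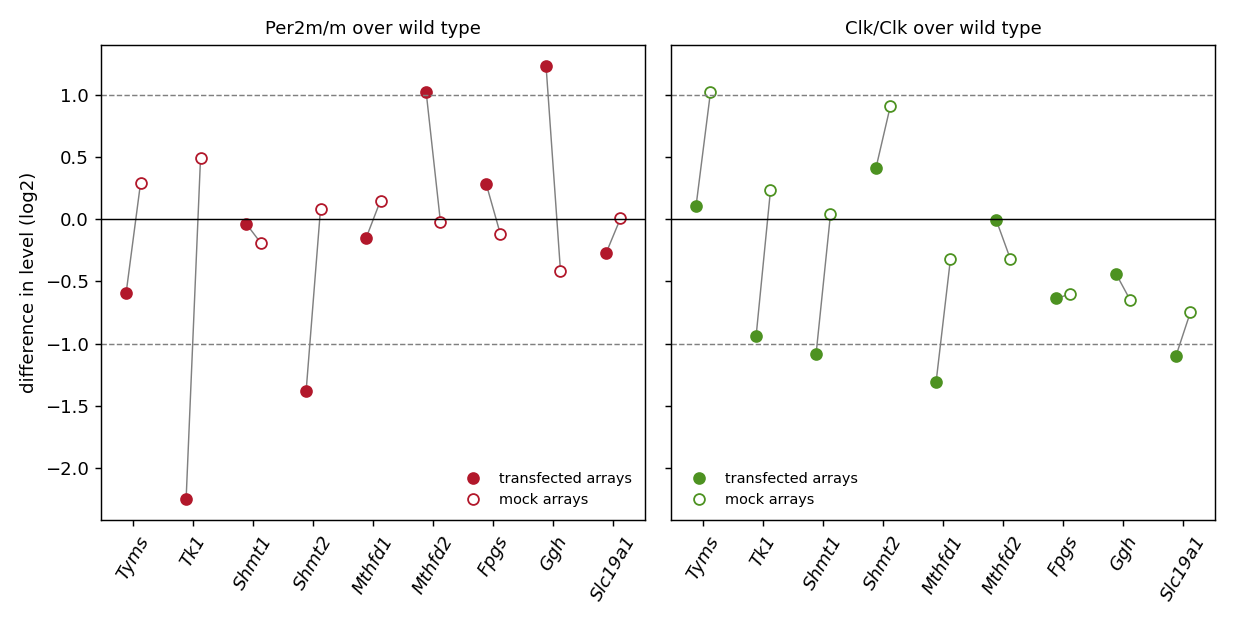
Difference in level (log2) of the 9 genes between Per2m/m and wild type cells (left) and between Clk/Clk and wild type cells (right), among transfected arrays (filled) and mock arrays (open), with dashed lines at 2-fold. Each point is a ratio of 2 single arrays. In the left panel the mock points lie between -0.41 and 0.50 and the transfected points between -2.25 and 1.23.

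The response of a gene can be set against the response in wild type cells, which both mutants share as a comparison. The Per2m/m response minus the wild type response was -2.75 for Tk1, -1.47 for Shmt2 and -0.88 for Tyms, and 1.65 for Ggh and 1.05 for Mthfd2. The Clk/Clk response minus the wild type response was -1.18 for Tk1, -1.13 for Shmt1, -0.99 for Mthfd1 and -0.92 for Tyms, and no gene was above 0.32. Spot noise gives such a difference a spread of 0.12, and the spread between cultures was not measured, so none of them has a test.

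Genes around the 9 on the same routes were described by 5 lists, and limma called 0 genes of any list in any term. Beside the counts of all 5 lists stand the shares over all genes, 18.7% higher and 20.7% lower in Per2m/m cells. The shares were 3.75% and 4.13% in Clk/Clk and 7.54% and 11.8% in wild type cells, and several list counts lie near them. Of 20 other folate and one-carbon genes 18 were measured. Of these, 6 were at least 2-fold higher and 3 lower with the vector in Per2m/m, 1 and 0 in Clk/Clk, and 4 and 3 in wild type cells, with median responses of -0.02, 0.21 and 0.14. Mthfd1l, the mitochondrial partner that releases formate, had responses of 1.66 in Per2m/m, 0.69 in Clk/Clk and 1.23 in wild type cells. Slc25a32, the carrier of folate into mitochondria, had 1.88, 0.48 and 1.19 in the same order. Folr1, a folate receptor, had -2.59 in Per2m/m, -0.05 in Clk/Clk and -2.05 in wild type cells, and Aldh1l1, which oxidises formyl folate, had 1.17, 1.40 and -2.54. Mthfs, which returns formyl folate to the cycle, had 1.12, -0.96 and 0.01.

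Of 16 genes of thymidylate and pyrimidine supply, 6 were at least 2-fold higher and 1 lower in Per2m/m, 1 and 0 in Clk/Clk, and 4 and 0 in wild type cells, with medians of 0.42, 0.39 and 0.61. Dut, which makes the dUMP that Tyms methylates, had responses of 1.43 in Per2m/m, 0.56 in Clk/Clk and 1.45 in wild type cells. Dtymk, the kinase that acts on thymidylate next, had 1.08, 0.43 and 1.22. Rrm2, the regulated subunit of ribonucleotide reductase, had -2.17 in Per2m/m, 0.78 in Clk/Clk and 0.15 in wild type cells, and Rrm1, its large subunit, had -0.23, 1.06 and 0.61. Umps, of pyrimidine synthesis, had 1.11, 0.85 and 0.91, while Cda, the cytidine deaminase, had 2.14, -0.99 and 2.06.

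Serine supply and ATF4 targets, the list to which Mthfd2 is closest by its known control, gave 8 of 10 genes past 2-fold upward in Per2m/m cells, 0 in Clk/Clk and 1 in wild type cells, and 0 lower in any. Their median response was 1.87 in Per2m/m, 0.45 in Clk/Clk and 0.33 in wild type cells. Trib3, a stress-induced pseudokinase, had responses of 4.13, 0.57 and -0.13 in this order, and Chac1, which breaks down glutathione, had 3.35, 0.82 and 0.31. Ddit3, a transcription factor of the stress response, had 2.21, -0.29 and -0.31, and Atf4 itself had 1.87, 0.06 and 0.73. Slc1a5, a carrier of glutamine and other neutral amino acids, had 2.17, 0.79 and 1.26, and Psat1, of serine synthesis, 0.89, 0.40 and 0.92. The part of ATF4 in the responses of Mthfd2 and the other members was not tested.

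Purine synthesis, which uses formyl folate, gave 3 of 12 genes at least 2-fold higher in Per2m/m, 0 in Clk/Clk and 1 in wild type cells, with 0 lower and medians of 0.85, 0.21 and 0.83. Adsl, which acts at 2 steps of the route, had responses of 1.44 in Per2m/m, 0.25 in Clk/Clk and 1.36 in wild type cells. Paics, of the same route, had 1.27, 0.16 and 0.97, Adss, on the branch to AMP, had 1.63, 0.44 and 0.88, and Pfas 0.93, 0.57 and 0.82. Prps1 and Prps2, which make the ribose phosphate donor, had 0.89 and 0.56 in Per2m/m, 0.54 and -0.54 in Clk/Clk, and 0.99 and 0.65 in wild type cells. Many of these genes lay just under 2-fold, and with arrays centred on their median 8 of 12 passed in Per2m/m and 8 of 12 in wild type cells. That centring shifted all genes upward, their median response going from 0.12 to 0.52 for Per2m/m and from 0.00 to 0.24 for wild type. The share of all genes past 2-fold after centring is not given here, so these 2 counts are not read as a purine result.

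Proliferation genes gave 9 of 21 at least 2-fold higher and 1 lower in Per2m/m, 2 and 0 in Clk/Clk, and 17 and 0 in wild type cells, with medians of 0.83, 0.68 and 1.34. Mcm2 and Mcm4, of the helicase that opens DNA for replication, had responses of 2.10 and 1.28 in Per2m/m, 1.16 and 0.95 in Clk/Clk, and 1.35 and 1.15 in wild type cells. Ccna2, the cyclin of S and G2 phase, had 0.22, 0.46 and 1.77, and Plk1, a mitotic kinase, -0.07, 0.35 and 1.53. Bub1, of the spindle checkpoint, had 0.91, 0.39 and 1.59. Cdt1, which loads the helicase, had 2.37, 0.55 and 1.25, and E2f2, a transcription factor of S phase genes, 2.06, 0.62 and 0.97. Ccne1, the cyclin of S phase entry, had -1.57 in Per2m/m, 1.48 in Clk/Clk and -0.67 in wild type cells. A share of dividing cells and RNA per cell cannot be told apart in these cultures, and the part of proliferation in the responses of the 9 genes was not tested.

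**Figure D4:**
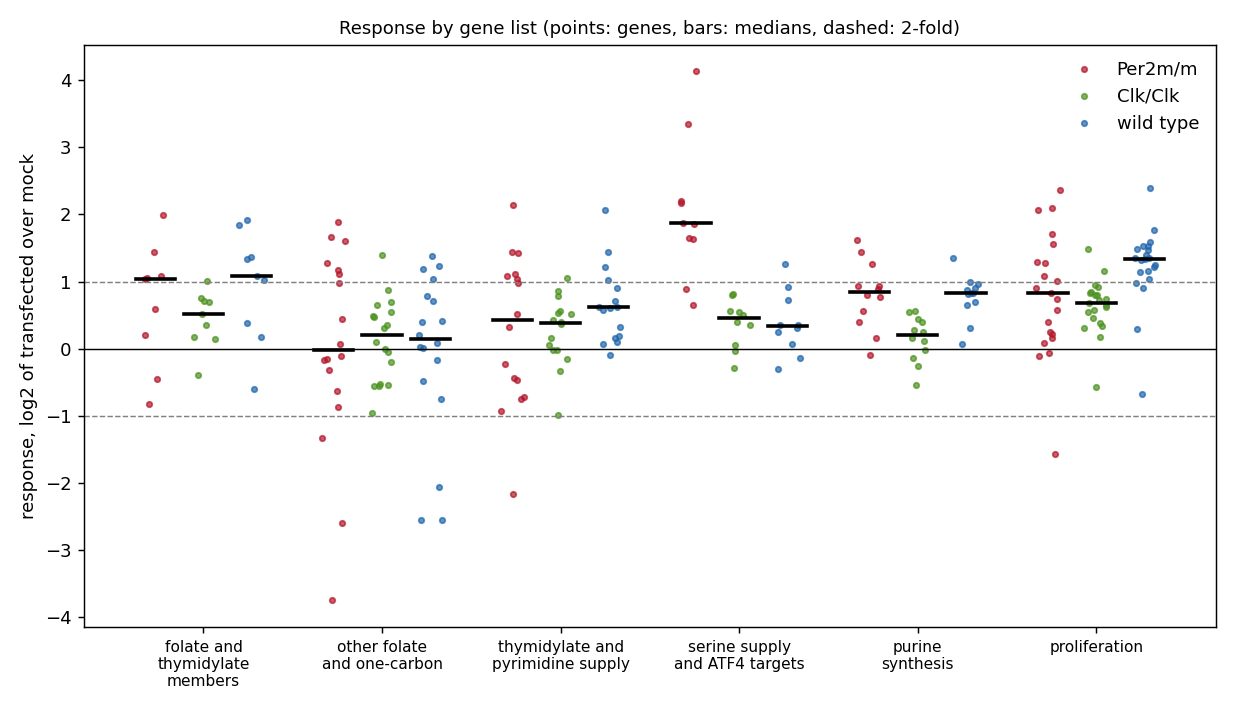
Response (log2 of the transfected over the mock array) of the 9 genes and of 5 lists of related genes in Per2m/m, Clk/Clk and wild type cells. Points are genes, bars are medians and dashed lines mark 2-fold. The serine and ATF4 list has medians of 1.87, 0.45 and 0.33 in this order, and the 9 genes 1.04, 0.52 and 1.08.

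The genes most like each of the 9 were found by the root mean square difference of levels centred on their own mean over the 6 arrays, among 12407 genes, as a description. Slc19a1, whose own SD over arrays was 0.71, was nearest to Mcm4 (0.11), Rbl1 (0.118) and Exo1 (0.142). Mthfd1 was nearest to Kif18a (0.08), Nop56 (0.109) and Ccnb1 (0.11), and Tk1 to Cdca2 (0.199), Pbk (0.287) and Mtfp1 (0.287). Shmt1 was nearest to Gins1 (0.165), Zc3h8 (0.17) and Nmral1 (0.175), and Shmt2 to Nsd2 (0.139), Gm10451 (0.179) and Macroh2a3 (0.188). Mthfd2 was nearest to Efcab7 (0.098), Usf2 (0.115) and Bicral (0.116), and Ggh to Mcoln1 (0.095), Atp6v1d (0.114) and Smim13 (0.12). Tyms was nearest to Mapre2 (0.126), Wipf1 (0.126) and Tpst1 (0.127), and Fpgs, which varied least, to Fbxw7 (0.03), Dip2c (0.041) and Ncdn (0.051). Over 6 arrays many genes share any given pattern.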

How the data were processed

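Total RNA of mouse embryonic fibroblasts was labelled with Cy3 and hybridised to 1-colour Agilent arrays, per the labels, with 1 array in each of 6 groups on 1 slide. The deposited scanner files hold spot intensity on a linear scale, extracted with Feature Extraction 10.7.1.1 per the file headers (the submitters' processing notes name 9.5.1.1). The authors also deposited 1 table of all 6 arrays, in units of intensity. Its columns share a median of 23.8 and follow the scanner values of their own arrays (r of 0.998 to 1.0). How the authors made it is not stated in the labels or headers. Its ratios lay close to those under quantile normalization here, such as 1.165 and 1.159 for the Tyms response in wild type cells. For the Shmt1 response in Per2m/m cells they were 1.892 and 1.876. The deposited table and quantile normalization are therefore not independent settings.

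Here, log2 of the processed signal minus that of the array's 75th percentile over non-control spots was used, without the 85 to 125 spots per array marked as outliers, and repeated spots of a probe were averaged. Of 55661 probes, 27220 were named by RefSeq accession, 3581 by symbol and 565 by synonym through a gene table of GRCm38.p6, used for names and promoters, and 24295 were not named and not analysed here. Probe positions are those of the files on mm9 (NCBI37). Probes well above background on at least 1 array were kept, and a gene is represented by the brightest of them over the 6 arrays, which gave 16718 genes.

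Genes were counted at 2-fold where the brighter array was well above background. Genotype and transfection were additive terms of a model over all 6 arrays, fitted with limma 3.58.1 in R 4.3.3 (two-sided, Benjamini-Hochberg over all genes, threshold 0.05). The model was also run on simulated data with the same noise in all genes and no genotype effects. That setting differs from these arrays, so it does not show how the model performs on them. The p-values measure only the spread between these 6 samples, and the number of arrays limits the precision. Python 3.11.15, pandas 2.3.3, numpy 2.4.6 and matplotlib 3.10.9 were used.

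Named were all 9 genes, the genes of each list at least 2-fold in 1 direction in all 3 genotypes or among its 3 highest absolute responses in a genotype where well above background on both arrays, and the 3 genes nearest to each member. A gene of the lists that this rule names is not reported here. The members and the lists were chosen with earlier results of these data known. Alternatives were other scalings and background correction, the deposited table, the mean of a gene's probes, the filter on dim probes, the arrays fitted and the terms of the model.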

Additional observations from a re-analysis of the deposited data

Results flagged for a closer look

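The 3 genes below responded to the vector in opposite directions in Per2m/m cells and in the other genotypes. Over all genes 18.0% had a response above 0 in all 3 genotypes, and the share with opposite directions was not counted. With 1 array a group, these differences were not tested. For Tk1 the response was -0.82 in Per2m/m cells, against 0.75 in Clk/Clk cells and 1.92 in wild type cells. Shmt2 had -0.45 in Per2m/m cells, 0.52 in Clk/Clk cells and 1.02 in wild type cells. With arrays centred on their median its Per2m/m value was -0.045, within spot noise, where the median of all genes was 0.52. That value was -0.60 under quantile normalization and in the deposited table, and -0.53 under normexp. Ggh had 1.05 in Per2m/m cells, -0.39 in Clk/Clk cells and -0.60 in wild type cells.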

How the results depend on the processing

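The genotype terms of the model pair the transfected and mock arrays of a genotype. No other pairing could be made, since the labels carry no replicate numbers. With 1 array a group, no array could be left out within a group for a response. Of 249 alternatives to counts, 222 stayed within 1.5 times of the count reported. Many of these 222 were counts of 0 that stayed at 0, and the deposited table and quantile normalization are not independent settings. Of 315 alternatives to the responses and genotype differences of the 9 genes, 146 moved by more than the spread given by repeated spots. The other 169 stayed within that spread. At least 2-fold higher in Per2m/m with the vector were 2 of the 9 genes under quantile normalization, under normexp and in the deposited table (5 reported), and in Clk/Clk 0 with the mean of a gene's probes (1 reported). Between transfected arrays, the same 3 settings gave 1 gene higher in Per2m/m than in wild type (2 reported), and 1, 0 and 1 lower in Clk/Clk (3 reported). Between mock arrays, median centring gave 0 higher in Clk/Clk than in wild type (1 reported). Among other folate genes, wild type had 1 lower under normexp (3 reported), and Clk/Clk had 2 higher (1 reported) and 1 lower (0 reported) under quantile normalization and in the deposited table. Among thymidylate and pyrimidine genes, Clk/Clk had 1 lower under these 2 settings (0 reported), and Per2m/m had 3 higher under normexp and with the mean of probes (6 reported) and 2 lower under quantile normalization, normexp, the deposited table and the mean of probes (1 reported). Median centring gave 8 purine genes higher in Per2m/m (3 reported) and 8 in wild type (1 reported), and 2 serine and ATF4 genes in wild type (1 reported). The same centring raised the median response of all genes, to 0.52 for Per2m/m and 0.24 for wild type. The cause of these shifts was not tested.

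No limma call for the 9 genes was made under any alternative, and 0 of their 2-fold responses turned sign. Adjusted p-values of the 9 genes lay within 0.61 to 0.991 for transfection, 0.767 to 1.0 for Per2m/m and 0.325 to 0.989 for Clk/Clk. The transfection term of Ggh turned to -0.087 under quantile normalization, -0.093 under normexp and -0.089 in the deposited table, and to -0.49 without the transfected Per2m/m array and with Clk/Clk and wild type arrays alone. The Per2m/m term of Shmt1 turned to 0.008 under median centring, and that of Mthfd1 to -0.058 under quantile normalization and the deposited table and -0.077 under normexp. Without the transfected Per2m/m array the Per2m/m term turned to 0.064 for Tyms, 0.20 for Tk1, -0.10 for Mthfd1, -0.13 for Fpgs and -0.36 for Ggh. The Clk/Clk term of Mthfd2 turned to 0.052 under quantile normalization and the deposited table and 0.058 under normexp.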
